A study of Homo sapiens with 9 samples.

Results

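The 39 genes described here encode the DNA replication machinery and its S phase partners. They were taken by symbol from a list that covers origin licensing (ORC1, ORC6, CDC6, CDT1 and MCM2 to MCM7), helicase activation (CDC45, GINS1, GINS2 and GINS3), polymerases and primase (POLA1, POLA2, PRIM1, POLD1, POLD3, POLE and POLE2), the sliding clamp and its loader (PCNA and RFC2 to RFC5), Okazaki fragment joining (FEN1 and LIG1), single-strand binding (RPA2), nucleotide supply (RRM1, RRM2 and TYMS), S phase entry (CCNE1, CCNE2 and E2F1), chromatin assembly (CHAF1A and CHAF1B) and repair (EXO1 and BRCA1). All 39 were found among the 23619 gene symbols of the files, and all 39 were among the 15532 genes with enough counts to be tested. Their RNA was measured in RKO, a human colorectal carcinoma cell line, in 2 parental samples, in the DIP2C-/- clones E3 and C10, and in the DIP2C+/- clones F6-A7, A6-C9, A9-A12, G1-A5 and H9-A4. In these clones part of exon 9 of DIP2C, a gene of little known function, had been removed by gene targeting with recombinant adeno-associated virus and drug selection, on 2 alleles or on 1. Cells were grown for 48 h before RNA was taken, and each clone was sequenced as 1 library. Per the study, the DIP2C-/- clones came from a second round of targeting of a DIP2C+/- clone, so clones are not independent of each other, and the parental cells had not gone through targeting and selection. Nothing says that the parental samples were separate cultures, so the p-values measure the spread between these libraries within their groups. Tests on all 9 samples share an estimate of that spread, to which the 5 DIP2C+/- clones contribute the most libraries. Clones outside a comparison therefore also shape its p-values.

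Replication starts when the origin recognition complex, with CDC6 and CDT1, loads the MCM helicase onto origins in G1. CDC45 and the GINS complex then turn the loaded helicase into an active one, polymerase alpha with primase lays down primers, and polymerases delta and epsilon extend them with the clamp PCNA, which the RFC complex loads. Many of these genes are transcribed as cells pass from G1 into S phase, under E2F transcription factors that RB proteins hold back until cyclin-dependent kinases phosphorylate RB. In a bulk sample, fewer cells in S phase and less of the RNA per cell cannot be told apart.

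DIP2C itself was measured at 60.9 and 70.8 CPM (counts scaled to a common library size) in the parental samples, 17.4 and 22.8 CPM in E3 and C10, and 46.9, 33.6, 38.8, 41.7 and 56.2 CPM in F6-A7, A6-C9, A9-A12, G1-A5 and H9-A4. Every clone was below both parental samples, and H9-A4 was the closest to them. Here and below, values of the DIP2C+/- clones are given in this order. Clone H9-A4 stood apart from the other clones across the transcriptome. Over the 15532 genes, its median absolute log2 difference from the parental mean was 0.25, against 0.314 to 0.364 in the other 6 clones, and 188 genes differed by at least 4-fold, against 377 to 518. Counts of calls and medians of the 39 genes are therefore given with and without it, and the plot of fold changes shows both values of each gene. Because H9-A4 was singled out by its closeness to the parental samples, results without it favour differences between clones and parental. Of the epithelial markers, KRT8, KRT18 and CDX2 were detected in every library, whereas EPCAM, KRT19, CDH1 and VIL1, which define epithelium, were at or near 0, with a highest value of 3.79 CPM for EPCAM in H9-A4. The summed level of 8 leukocyte, endothelial and fibroblast markers was 3.5 to 7.57 CPM. The deposited counts summed to 14772593 to 21486483 per library. At these totals 3 counts correspond to 0.14 to 0.203 CPM, far under the level of every replication gene listed. The counts are scaled, with 1 read worth 0.711 to 1.11 of them depending on the library, so the totals are not numbers of reads.

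In 6 of the 7 clones most of the 39 genes were somewhat below their parental level, and in H9-A4 most were above it. The mean log2 difference from the parental mean over the 39 genes was -0.24 in F6-A7, -0.23 in A6-C9, -0.21 in E3, -0.20 in C10, -0.19 in A9-A12 and -0.11 in G1-A5, and it was 0.15 in H9-A4. The parental samples lay at 0.04 and -0.04. In linear terms the mean was 7.14% to 15.3% lower in the 6 clones and 11.1% higher in H9-A4. Between 28 and 30 of the 39 genes were below the parental mean in each of the 6 clones, and 8 were below it in H9-A4. In the second parental sample 27 were below that mean, and 12 in the first, so the 6 clones barely exceed 1 parental library by this count. Of all genes tested, 48.4% to 50.5% were below the parental mean in each clone. The median difference over all genes tested was between -0.01 and 0.02 in every clone. The summed level of the 39 genes was 5991 and 5610 CPM in the parental samples, 4958 to 5273 CPM in the 6 clones and 6592 CPM in H9-A4.

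**Figure D1:**
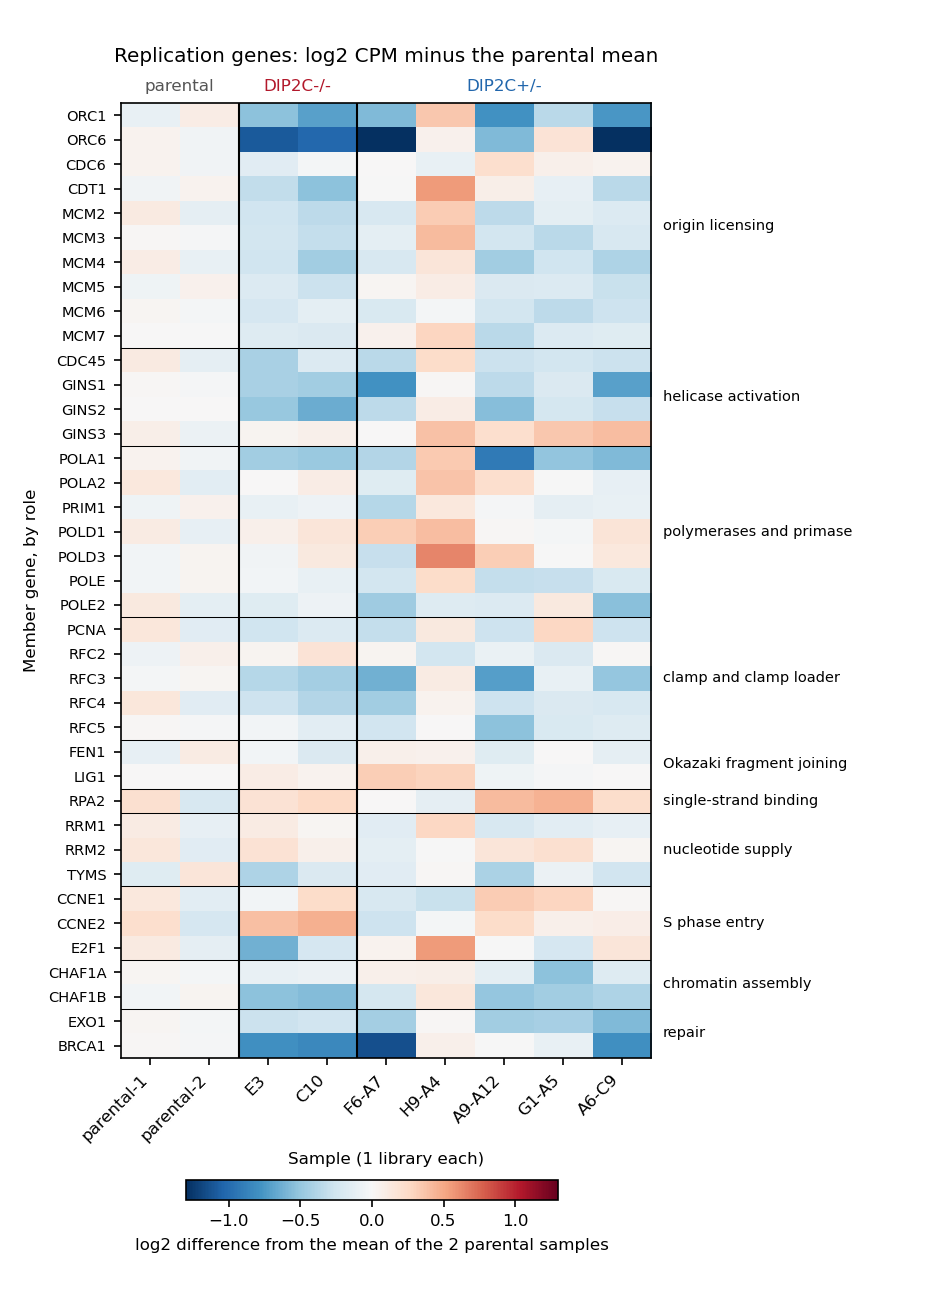
Heat map of the 39 genes, grouped by role (rows), in the 9 libraries (columns), coloured by log2 CPM minus the mean of the 2 parental samples. Most origin licensing cells are blue in every clone but H9-A4, whose column is mostly red, and the darkest cells are ORC6 in F6-A7 and A6-C9 (-1.29 in both).

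The differences were small for single genes. At least 1.5-fold below the parental mean were 4 of the 39 genes in F6-A7, A6-C9 and C10, 3 in E3 and A9-A12, and 0 in G1-A5 and H9-A4. Of all genes tested, 13.9%, 17.4%, 14%, 12.5%, 15%, 16.6% and 10.3% were that far below in these clones, in the same order, so the share among the replication genes, 0% to 10.3%, was the lower one in each clone. The shares were not matched for expression level. Parental means of the 39 genes ran from 21.6 CPM (POLD3) to 788 CPM (MCM7). The genes tested include ones as low as CDH5, at 0.294 CPM, where few counts make ratios noisy. POLD3 in H9-A4 was the 1 value at least 1.5-fold above, where 8.98% of all genes were, and the shares of all genes above in F6-A7, A6-C9, C10, E3, A9-A12 and G1-A5 were 17.5%, 14.3%, 13.4%, 18.6%, 16% and 10.7%.

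No replication gene passed the edgeR quasi-likelihood test on all 9 samples at a Benjamini-Hochberg adjusted p-value under 0.05. Between the 7 clones and the parental samples the smallest adjusted p was 0.373, for EXO1, and 0 of the 39 genes had an unadjusted p under 0.05, beside 13.4% of all genes. Over all genes tested, 28 were called in this comparison, or 0.18%. In the DIP2C-/- clones against parental the smallest adjusted p was 0.337, for GINS2, against 0.00644% of all genes called. GINS2, CHAF1B, BRCA1 and ORC6 had an unadjusted p under 0.05 there, all 4 in the lower direction, beside 12.7% of all genes, 6.74% lower. In the DIP2C+/- clones the smallest adjusted p was 0.428, for EXO1, the 1 gene with an unadjusted p under 0.05 (11.6% of all genes), and 0.0966% of all genes were called. DESeq2's Wald test called 0 of the 39 genes in each of these comparisons, beside 1.96% of all genes in all clones, 1.91% in the DIP2C-/- and 1.24% in the DIP2C+/- clones. The median log2 fold change of the 39 genes was -0.18 in the DIP2C-/- clones, -0.09 in the DIP2C+/- clones and -0.12 in all 7, beside 0.02 over all genes tested in each. Of the 39 genes, 28, 27 and 29 were below 0, or 71.8%, 69.2% and 74.4%, beside 48.2%, 47.8% and 48.2% of all genes.

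Without H9-A4, 4 replication genes passed the same test, all lower in the clones. These were ORC1, with a log2 fold change of -0.62 (SE 0.15, adjusted p = 0.0253), POLA1 with -0.54 (SE 0.14, adjusted p = 0.0382), EXO1 with -0.40 (SE 0.11, adjusted p = 0.0425) and CHAF1B with -0.45 (SE 0.12, adjusted p = 0.0442). The 4 are 10.3% of the 39 genes. Of the 15390 genes tested in that fit 8.95% were called, 4.47% lower and 4.48% higher. ORC1, POLA1 and EXO1 also passed in the 4 DIP2C+/- clones, where 7.95% of all genes were called, 3.58% lower and 4.37% higher. No replication gene passed in the DIP2C-/- clones, where 4.76% of all genes were called, 2.44% lower and 2.32% higher. The smallest adjusted p there was 0.0668, for GINS2, and 8 of the 39 genes had an unadjusted p under 0.05, all lower, beside 18.7% of all genes, 9.6% lower. The median log2 fold change of the 39 genes against parental was then -0.18 in the DIP2C-/- clones, -0.18 in the DIP2C+/- clones and -0.20 in all 6. When the 2 DIP2C-/- clones and the 2 parental samples were fitted alone, 6 genes passed, namely ORC6, BRCA1, ORC1, CHAF1B, GINS2 and POLA1, all lower, with 12.6% of all genes called in either direction.

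**Figure D2:**
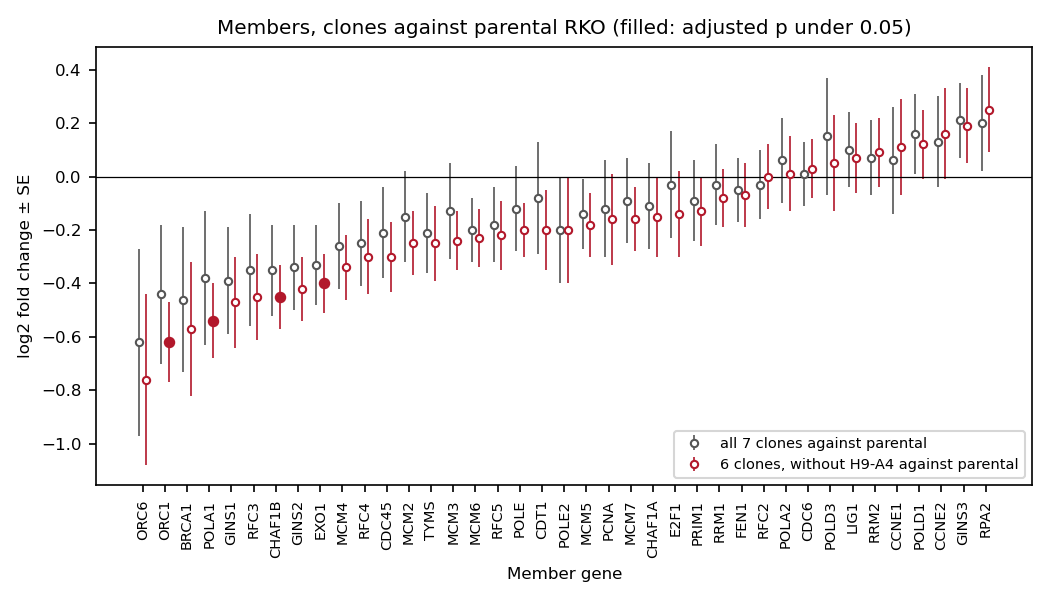
Log2 fold change with its standard error (vertical axis) of each of the 39 genes (horizontal axis, ordered by the fit without H9-A4), for the 7 clones in grey and the 6 clones without H9-A4 in red, each against the 2 parental samples. Filled points have an adjusted p under 0.05 and are ORC1, POLA1, CHAF1B and EXO1 in the fit of 6 clones, and 29 of the 39 genes are below 0 in either fit.

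Counted by overlap, MCM6 alone was below both parental samples in all 7 clones, where 5.54% of all genes tested were, and no replication gene was above both in all 7, where 5.43% were. Without H9-A4, 14 of the 39 genes (35.9%) were below both parental samples in all 6 clones, beside 11.5% of all genes tested. The 14 are ORC1, MCM2, MCM3, MCM4, MCM6, CDC45, GINS1, GINS2, POLA1, RFC3, RFC4, RFC5, CHAF1B and EXO1. None of the 39 was above both in all 6 clones, beside 12.4% of all genes. In the DIP2C-/- clones 24 (61.5%) were below both parental samples and 2, LIG1 and CCNE2, above both, beside 26.3% and 26.9% of all genes. In the 5 DIP2C+/- clones MCM6 alone was below both (7.12% of all genes) and none above both (7.19% of all genes). In the 4 without H9-A4, 15 of the 39 genes (38.5%) were below both, beside 14.3% of all genes. None of these shares of all genes was matched to the 39 genes for expression level.

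Promoter sequence was read to see what these genes share beyond their role. RefSeq promoter windows (GRCh38.p14) of 300 bases, 250 before and 50 after the start, were found for 34 of the 39 genes, and CCNE2, MCM4, MCM5, POLD3 and RPA2 had no entry. E2F-type sites were searched as TTTCCCGC, TTTGGCGC, TTTCGCGC and TTTGCCGC on both strands, a choice made after the data had been seen. At least 1 such 8-letter match was present in 19 of the 34 promoters (55.9%). It was present in 5.02% of the 10859 promoters found for the 15532 genes tested, and in 3.33% of all 27305 promoters in the table. These shares were not matched for base composition. Since many replication genes are known to be under E2F factors, a high share could be foreseen and says nothing about these samples. In the lists of other replication genes and G2/M genes described below, 6 of 32 promoters (18.8%) and 3 of 21 (14.3%) held such a match. Among the 39 genes, a match was present in 8 of the 13 promoters found for the 14 genes that were below both parental samples in 6 clones (61.5%), and in 11 of the 21 found for the other members (52.4%). The windows below, each 24 bases long, are printed on the strand of the gene with the match in capitals. The first 4 belong to genes of the 14 and the last 3 to genes outside them. A capital run that ends in AAA is the match on the opposite strand, and matching letters say nothing of binding.
MCM6, chr2:136634150-136634173, minus strand: gctttgcaTTTGGCGCgaaatccc
MCM6, chr2:136634088-136634111, minus strand: tggtcaggTTTGGCGCgaaatctc
MCM3, chr6:52149699-52149722, minus strand: atggtacgTTTCCCGCcaccgcgg
POLA1, chrX:24711890-24711913, plus strand: atcacaggGCGCCAAAcgcgcgtc
CDT1, chr16:88870154-88870177, plus strand: gggcgcccGCGGGAAAtttggcgg
PCNA, chr20:5107312-5107335, minus strand: cgtcagggGCGGGAAAaggcgtgc
E2F1, chr20:32274196-32274219, minus strand: aaaaaggaTTTGGCGCgtaaaagt
Coordinates are those of the single match of each window in GRCh37 near its gene, outside the GENCODE gene body in each case. In MCM6 each printed match overlaps a TTTCGCGC match on the opposite strand. The promoter of E2F1 holds a TTTGCCGC match as well.

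Origin licensing genes were among the lowest. The mean log2 difference of the 10 genes was -0.40 in C10, -0.39 in A6-C9, -0.34 in E3, -0.29 in A9-A12, -0.25 in F6-A7 and -0.17 in G1-A5, and 0.21 in H9-A4. ORC1, the largest subunit of the origin recognition complex, is encoded on chromosome 1 from 52838501 to 52870095 (GRCh37). It measured 58 and 66.2 CPM in the parental samples, 42.8 and 38 CPM in E3 and C10, and 41.6, 36.6, 35.8, 48.6 and 78.9 CPM in the DIP2C+/- clones. All clones but H9-A4, the highest library of the 9, were below the parental range. The parental mean was 62.1 ± 5.83 CPM (SD, n = 2) and the DIP2C-/- mean 40.4 ± 3.4 CPM (SD, n = 2), and the log2 fold change of all 7 clones was -0.44 (SE 0.26, adjusted p = 0.49).

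ORC6, the smallest subunit of the same complex (chromosome 16, 46723555 to 46732306), had the lowest log2 fold change of the 39, and its clones lay at separate levels. It measured 68.6 and 63.9 CPM in the parental samples, 31 and 32.6 CPM in E3 and C10, and 27.1, 26.9, 44.5, 75 and 69 CPM in the DIP2C+/- clones. E3, C10, F6-A7 and A6-C9 were at 26.9 to 32.6 CPM, A9-A12 was between them and the parental samples, and H9-A4 and G1-A5 were above both parental samples. The log2 fold change was -1.06 in the DIP2C-/- clones (SE 0.46, adjusted p = 0.378) and -0.62 in all clones (SE 0.35, adjusted p = 0.462). It did not pass without H9-A4 either, at -0.76 (SE 0.32, adjusted p = 0.176). In the fit of DIP2C-/- and parental samples alone, where the 2 values of each group are close, it was -1.07 with an adjusted p of 0.0012.

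CDC6, which loads MCM together with ORC, measured 131 and 122 CPM in the parental samples, 114 and 124 CPM in E3 and C10, and 127, 131, 147, 133 and 118 CPM in the DIP2C+/- clones, with overlapping groups and a log2 fold change of 0.01 (SE 0.12, adjusted p = 0.977) in all clones. CDT1, the other loader, had the log2 fold changes -0.42 (SE 0.26) in the DIP2C-/- clones and 0.06 (SE 0.22) in the DIP2C+/- clones, with H9-A4 highest at 70.1 CPM.

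The 6 subunits of the MCM2-7 helicase core lay close together. Their log2 fold changes in all clones were -0.26 to -0.09, and those without H9-A4 were -0.34 to -0.16. MCM2 measured 408 and 345 CPM in the parental samples, 313 and 296 CPM in E3 and C10, and 324, 331, 296, 343 and 471 CPM in the DIP2C+/- clones. It was below both parental samples in all clones but H9-A4, which was above both, and the log2 fold change was -0.15 (SE 0.17, adjusted p = 0.746) in all clones and -0.25 (SE 0.12, adjusted p = 0.231) without H9-A4. MCM6, on chromosome 2 from 136597196 to 136634013, measured 225 and 217 CPM in the parental samples, 190 and 202 CPM in E3 and C10, and 193, 183, 187, 174 and 216 CPM in the DIP2C+/- clones. The gap between H9-A4 and the lower parental sample was small, and the log2 fold change in all clones was -0.20 (SE 0.12, adjusted p = 0.489). MCM4, with the largest difference of the 6, was at -0.26 (SE 0.16, adjusted p = 0.514) in all clones and -0.34 (SE 0.12, adjusted p = 0.109) without H9-A4.

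Of the helicase activators, CDC45 and the GINS subunits GINS1 and GINS2 were lower in the 6 clones and GINS3 was not. CDC45 measured 63.4 and 54 CPM in the parental samples, 43.7 and 51.5 CPM in E3 and C10, and 46, 48.1, 48.1, 49.5 and 69.2 CPM in the DIP2C+/- clones. H9-A4 was the highest library, and the log2 fold change was -0.21 (SE 0.17, adjusted p = 0.636) in all clones and -0.30 (SE 0.13, adjusted p = 0.193) without it. GINS1 measured 53.7 and 52 CPM in the parental samples, 39.4 and 38.7 CPM in E3 and C10, and 30.4, 32.3, 41.6, 46.4 and 53.7 CPM in the DIP2C+/- clones, with the lowest values in F6-A7 and A6-C9, the same 2 libraries that were lowest in ORC6. Its log2 fold change was -0.39 (SE 0.20, adjusted p = 0.43) in all clones and -0.47 (SE 0.17, adjusted p = 0.114) without H9-A4. GINS2 was at 82.6 ± 0.1 CPM (SD, n = 2) in the parental samples and 55.7 ± 4.46 CPM (SD, n = 2) in the DIP2C-/- clones, a log2 fold change of -0.57 (SE 0.20, adjusted p = 0.337). GINS3 had the highest log2 fold change of the 39, 0.21 (SE 0.14, adjusted p = 0.531). It measured 47.1 and 42 CPM in the parental samples, 45.8 and 46.8 CPM in E3 and C10, and 44.7, 58.7, 51.9, 56.9 and 57.8 CPM in the DIP2C+/- clones, of which all but F6-A7 were above both parental samples.

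Among the 7 polymerase and primase genes POLA1 alone was below both parental samples in the 6 clones other than H9-A4. POLA1, the catalytic subunit of the priming polymerase alpha (chromosome X, 24711990 to 25015103), measured 91.6 and 85.6 CPM in the parental samples, 64.7 and 63.6 CPM in E3 and C10, and 68.3, 59.5, 46.8, 62.4 and 112 CPM in the DIP2C+/- clones. H9-A4 was the highest of the 9 libraries and A9-A12 the lowest. Its partner subunit POLA2 had a log2 fold change of 0.06 (SE 0.16) and the primase PRIM1 of -0.09 (SE 0.15) in all clones. POLD1, the catalytic subunit of polymerase delta, measured 156 and 133 CPM in the parental samples, 152 and 161 CPM in E3 and C10, and 180, 162, 146, 141 and 190 CPM in the DIP2C+/- clones, at a log2 fold change of 0.16 (SE 0.15, adjusted p = 0.671). The groups overlapped. POLD3, an accessory subunit of polymerase delta, measured 21 and 22.3 CPM in the parental samples, 20.8 and 23.6 CPM in E3 and C10, and 17.6, 23.8, 27, 21.5 and 33.6 CPM in the DIP2C+/- clones, with a log2 fold change of 0.15 (SE 0.22, adjusted p = 0.83), and H9-A4 was the highest library. The polymerase epsilon genes POLE and POLE2 were at -0.12 (SE 0.16) and -0.20 (SE 0.20).

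Of the clamp and its loader, 3 loader subunits were below parental in the 6 clones. PCNA measured 159 and 129 CPM in the parental samples, 120 and 126 CPM in E3 and C10, and 115, 119, 118, 172 and 156 CPM in the DIP2C+/- clones. E3, C10, F6-A7, A6-C9 and A9-A12 were below both parental samples, H9-A4 was between them and G1-A5 above, and the log2 fold change in all clones was -0.12 (SE 0.18, adjusted p = 0.82). RFC3, RFC4 and RFC5 were below both parental samples in all clones but H9-A4, with log2 fold changes of -0.35, -0.25 and -0.18 in all 7, while RFC2 was at -0.03. Without H9-A4 these were -0.45, -0.30, -0.22 and 0.00, and none of the 4 passed the test.

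FEN1, the flap nuclease that trims Okazaki fragments, measured 98.2 and 114 CPM in the parental samples, 103 and 93.1 CPM in E3 and C10, and 111, 97.4, 94.9, 107 and 111 CPM in the DIP2C+/- clones, and its groups overlapped, at a log2 fold change of -0.05 (SE 0.12, adjusted p = 0.893) in all clones. LIG1, the ligase that joins them, was at 0.10 (SE 0.14). RPA2, a subunit of the single-strand binding protein, had the second highest log2 fold change of the 39, 0.20 (SE 0.18, adjusted p = 0.664), and its parental samples differed by more than most clones did from their mean. It measured 104 and 77.5 CPM in the parental samples, 103 and 107 CPM in E3 and C10, and 89.8, 105, 119, 123 and 82.7 CPM in the DIP2C+/- clones.

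The 3 genes of nucleotide supply had a mean log2 difference from parental of -0.15 to -0.01 in 6 clones and 0.09 in H9-A4. RRM2, the inducible subunit of ribonucleotide reductase, measured 387 and 315 CPM in the parental samples, 399 and 366 CPM in E3 and C10, and 319, 357, 392, 403 and 346 CPM in the DIP2C+/- clones, at a log2 fold change of 0.07 (SE 0.14, adjusted p = 0.873). TYMS, thymidylate synthase, measured 110 and 137 CPM in the parental samples, 93.3 and 108 CPM in E3 and C10, and 111, 103, 92.2, 116 and 125 CPM in the DIP2C+/- clones, at -0.21 (SE 0.15, adjusted p = 0.548). Exons of the antisense gene ENOSF1 cover 39.9% of the exon bases of TYMS, and since counting by strand is not stated its value is uncertain. RRM1 was at -0.03 (SE 0.15).

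**Figure D3:**
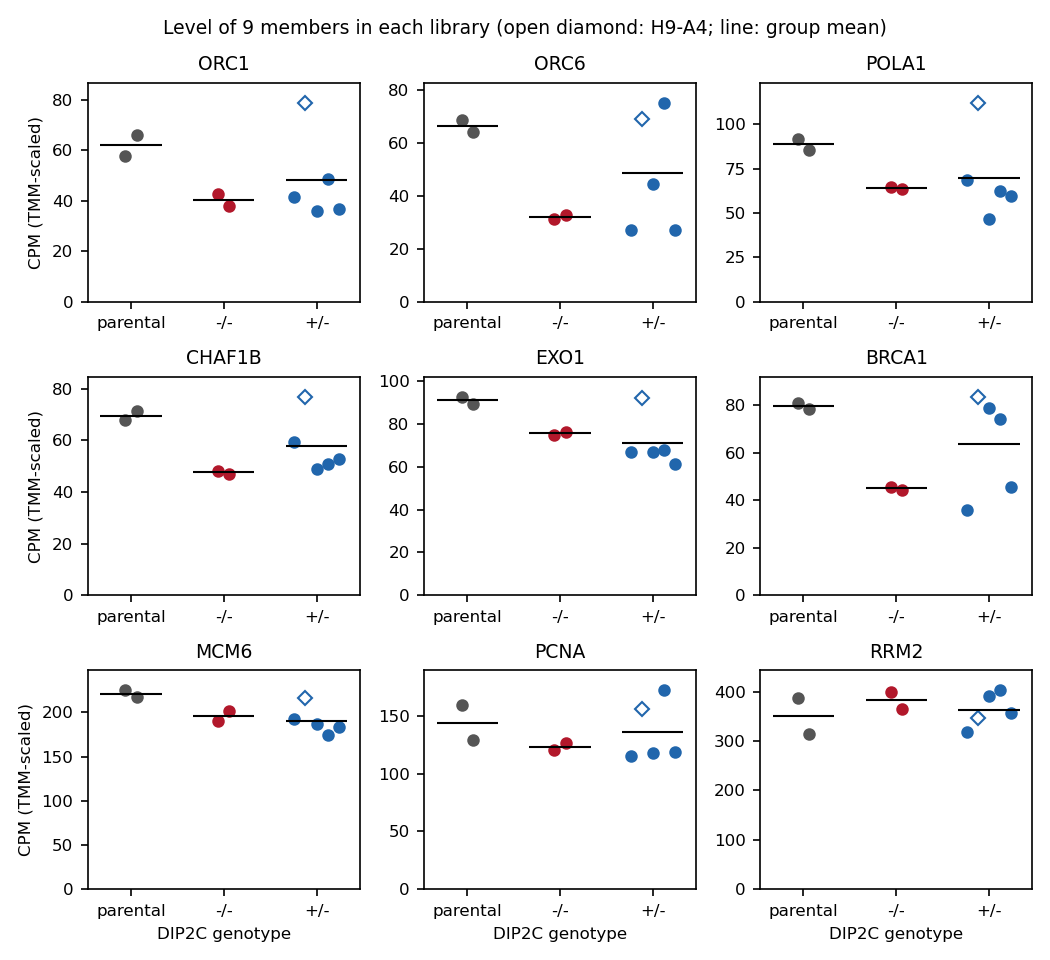
CPM after TMM scaling (vertical axes, from 0) of 9 replication genes in the parental, DIP2C-/- and DIP2C+/- libraries (horizontal axes), with 1 point per library, a line at the group mean and an open diamond for H9-A4. H9-A4 is above every other clone in ORC1, POLA1, CHAF1B, EXO1, BRCA1 and MCM6, and G1-A5 is the highest in ORC6 (75 CPM) and PCNA (172 CPM).

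The genes of S phase entry did not move together. CCNE1, cyclin E1, measured 32 and 26.4 CPM in the parental samples, 28.2 and 34.2 CPM in E3 and C10, and 25.1, 29.4, 36.5, 35.3 and 23.7 CPM in the DIP2C+/- clones, with overlapping groups and a log2 fold change of 0.06 (SE 0.20, adjusted p = 0.933) in all clones. CCNE2, cyclin E2, measured 55.6 and 40.6 CPM in the parental samples, 62.4 and 65.5 CPM in E3 and C10, and 39.3, 50.6, 56.3, 49.9 and 46.5 CPM in the DIP2C+/- clones. Both DIP2C-/- clones were thus above every other library, at a log2 fold change of 0.41 against parental (SE 0.21, adjusted p = 0.432). Exons of INTS8, on the opposite strand, cover 37% of its exon bases. E2F1, a transcription factor that drives many replication genes, measured 51.8 and 43.8 CPM in the parental samples, 30.9 and 40.9 CPM in E3 and C10, and 49.3, 53.3, 47.4, 40.8 and 69.6 CPM in the DIP2C+/- clones. The DIP2C-/- clones were below both parental samples, at -0.41 (SE 0.25, adjusted p = 0.515), and the DIP2C+/- clones were spread to both sides.

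In chromatin assembly, CHAF1A and CHAF1B encode subunits of the histone chaperone CAF-1. CHAF1A measured 137 and 132 CPM in the parental samples, 125 and 128 CPM in E3 and C10, and 141, 120, 122, 93.1 and 142 CPM in the DIP2C+/- clones, at -0.11 (SE 0.16, adjusted p = 0.817), with G1-A5 lowest. CHAF1B, on chromosome 21 from 37757690 to 37791313, measured 67.8 and 71.4 CPM in the parental samples, 48.1 and 47.1 CPM in E3 and C10, and 59.3, 52.7, 49.1, 50.8 and 77 CPM in the DIP2C+/- clones. All clones but H9-A4 were below both parental samples, at -0.35 (SE 0.17, adjusted p = 0.396) in all 7.

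Of the repair genes, EXO1, a 5' to 3' exonuclease (chromosome 1, 242011269 to 242058450), measured 92.6 and 89.3 CPM in the parental samples, 74.9 and 76.2 CPM in E3 and C10, and 67, 61.3, 66.6, 67.6 and 92 CPM in the DIP2C+/- clones. Except for H9-A4, which lay between the parental samples, the clones were under the parental range, at -0.33 (SE 0.15, adjusted p = 0.373) in all 7. BRCA1, which acts in homologous recombination and fork protection, measured 80.8 and 78.4 CPM in the parental samples, 45.7 and 44.4 CPM in E3 and C10, and 36.1, 45.7, 78.9, 74.3 and 83.6 CPM in the DIP2C+/- clones. E3, C10, F6-A7 and A6-C9 were low, the same 4 libraries as in ORC6, while H9-A4, A9-A12 and G1-A5 were near the parental samples. The log2 fold change was -0.82 (SE 0.35, adjusted p = 0.374) in the DIP2C-/- clones and -0.46 (SE 0.27, adjusted p = 0.481) in all clones, and -0.57 (SE 0.25, adjusted p = 0.197) in all but H9-A4.

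Between the genotypes no replication gene passed. In DIP2C+/- against DIP2C-/- clones the smallest adjusted p was 0.878 in edgeR's test, edgeR called 0 of all genes tested (0%), and DESeq2 called 6 of them (0.0386%), none among the 39. E2F1 (log2 fold change 0.54, SE 0.22) and CCNE2 (-0.40, SE 0.17) had an unadjusted p under 0.05, as did 5.57% of all genes. CCNE2 was lower in every DIP2C+/- clone than in both DIP2C-/- clones, and CHAF1B was higher in every one, beside 5% and 6.86% of all genes. Without H9-A4 no gene passed either, the smallest adjusted p of the 39 being 0.69, and E2F1 was at 0.41 (SE 0.17) and CCNE2 at -0.38 (SE 0.17). A p that misses the threshold does not show that the genotypes were alike.

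A second list held 40 other replication genes that are not among the 39. None passed on all 9 samples in edgeR, with 5 at an unadjusted p under 0.05 in all clones against parental (13.4% of all genes). DESeq2 called 1, higher, beside 1.96% of all genes in either direction. The median log2 fold change was -0.09, and -0.10 without H9-A4. Their mean log2 difference was -0.06 and -0.09 in E3 and C10, and -0.18, -0.19, -0.14, -0.05 and -0.07 in the DIP2C+/- clones, so it was below 0 in H9-A4, where that of the 39 genes was 0.15. The lowest was MYBL2, a transcription factor of S and G2 phase, at -0.70 (SE 0.22, adjusted p = 0.282), and the highest POLD4, the smallest subunit of polymerase delta, at 1.42 (SE 0.41, adjusted p = 0.267). Without H9-A4, MCM10 fell by 0.58 (SE 0.12, adjusted p = 0.016) and MYBL2 by 0.86 (SE 0.13, adjusted p = 0.0018) on the log2 scale, and POLD4 rose by 1.54 (SE 0.25, adjusted p = 0.00306). In that fit 8.95% of all genes were called. POLD4 measured 4.24 and 5.17 CPM in the parental samples, 8.82 and 12.3 CPM in E3 and C10, and 13.3, 14.8, 18.8, 15.2 and 5.6 CPM in the DIP2C+/- clones, so the difference was smallest in H9-A4.

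Genes of the G2 phase and mitosis, the cell cycle group nearest to these, had larger mean differences from parental. Their mean log2 difference was -0.38 and -0.43 in E3 and C10, and -0.60, -0.54, -0.56, -0.42 and -0.18 in the DIP2C+/- clones, so H9-A4 was the closest to parental. All 26 had a negative log2 fold change in all clones, beside 29 of the 39 replication genes, with a median of -0.40 against -0.12, and 12 of the 26 (46.2%) were below both parental samples in all 7 clones against 1 of 39. Without H9-A4 the medians were -0.47 and -0.20, and 18 of the 26 (69.2%) were below both parental samples in the 6 clones against 14 of 39 (35.9%). Of all genes tested, 5.54% were below both in all 7 clones and 11.5% in the 6. The difference between the lists was not tested. CENPE, a kinetochore motor, passed in all clones against parental on all 9 samples at -0.90 (SE 0.15, adjusted p = 0.0453). There 0.18% of all genes were called. In that comparison no G2/M gene was called once any 1 sample other than C10 or H9-A4 was left out, with no filter on low counts, or with each library's values divided by its smallest step. Without H9-A4, 11 of the 26 passed, all lower, and 4.47% of all genes were called lower. DESeq2 called 4 of the 26 on all 9 samples, beside 1.96% of all genes.

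**Figure D4:**
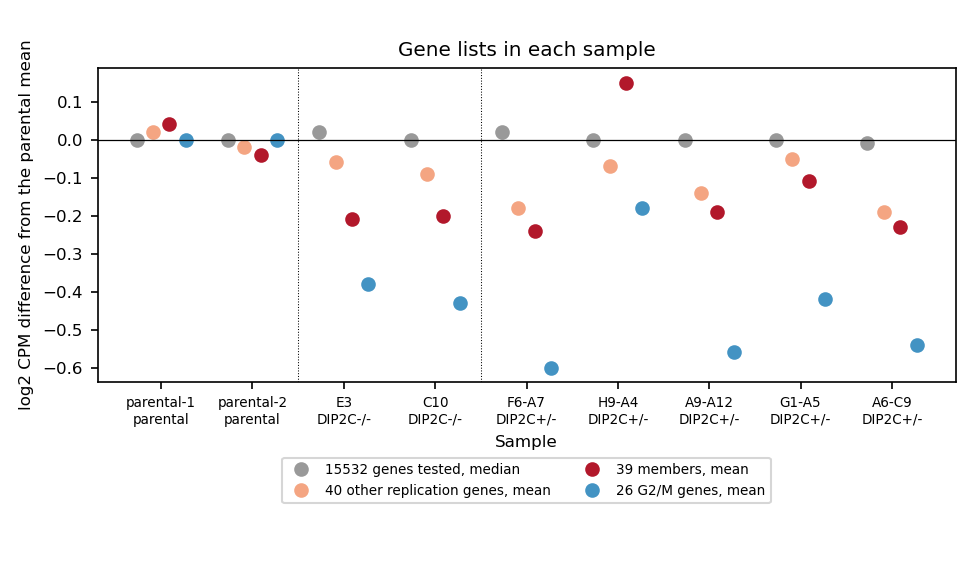
Mean log2 CPM difference from the parental mean (vertical axis) of the 39 replication genes, 40 other replication genes and 26 G2/M genes, and the median of the 15532 genes tested, in each of the 9 libraries (horizontal axis). The G2/M mean is the lowest point in every clone, and the mean of the 39 genes is above 0 only in H9-A4 (0.15) among the clones.

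Regulators of the G1 to S transition that act upstream of the 39 genes were read in the same fits. None of the 28 passed on all 9 samples in edgeR, with 10 at an unadjusted p under 0.05 in all clones (13.4% of all genes). DESeq2 called 3 lower and 1 higher, beside 1.96% of all genes in either direction. Without H9-A4, CDKN1B, CDKN1C, CDKN2C, CDK6, E2F2 and E2F8 fell and CDKN1A, CDKN2A and MYC rose. Of all genes tested in that fit, 4.47% were called lower and 4.48% higher. CDKN1A, which encodes the kinase inhibitor p21, measured 96 and 94.1 CPM in the parental samples, 223 and 277 CPM in E3 and C10, and 265, 333, 366, 414 and 60.1 CPM in the DIP2C+/- clones. It was thus above parental in the 6 clones whose mean replication gene level was lower, and below parental in H9-A4, at a log2 fold change of 1.54 (SE 0.54, adjusted p = 0.318) with H9-A4 and 1.70 (SE 0.18, adjusted p = 0.000193) without it. CDKN2A, which encodes p16 and p14ARF, was at 1.21 and 1.67 CPM in the parental samples, 13.1 to 24.9 CPM in the same 6 clones and 0.113 CPM in H9-A4, the last under the level of 3 counts. Other kinase inhibitors did not rise. Without H9-A4, CDKN1B, CDKN1C and CDKN2C were lower, at -0.79, -2.18 and -1.18 (adjusted p = 0.00732, 0.00223 and 0.00664 in edgeR's test). CDKN2B and CDKN2D were at -0.16 and -0.11 and did not pass. The part of these regulators in the levels of the replication genes was not tested.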

How the data were processed

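RNA of 9 RKO libraries was sequenced by the authors on the Ion Proton system and aligned to hg19 with TopHat2 2.0.4. Gene levels come from Cufflinks, which the submitters' processing notes give as version 2.2.1 and the paper as an earlier version. The deposited values are expected counts per gene, estimated by the authors with Cufflinks, and need not be whole. Of the low values in each sample 98.5% to 98.9% were whole multiples (tolerance 0.02) of 1 step per sample, 0.711 to 1.11, so 1 read is not worth 1 count and intervals from counts would be approximate. The design had assumed raw counts, so each value was rounded first. Strandedness, sequencing batch and date are not given in the sources used here, so no within-batch value could be computed. Groups came from the labels. The paper describes fewer DIP2C+/- clones than the 5 in the files.

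Genes were kept by filterByExpr, scaled by TMM and fitted with 1 coefficient per genotype in edgeR 4.0.16 (R 4.3.3), on all 9 samples. The quasi-likelihood F test was applied to each contrast, and all 7 clones were averaged with equal weight. Adjusted p-values run over all genes tested, with a threshold of 0.05 and no fold threshold. The standard error is the size of the log2 fold change over the square root of F. The biological coefficient of variation was 29.8%, and 24.2% without H9-A4. CPM were scaled by TMM, and per-clone log2 differences used a prior count of 2. Alternatives were DESeq2 1.42.0, other scalings, filters and prior counts, fits of only the groups compared, values divided by the step, and each sample left out. The scripts were tested on simulated data. Recovery was required only for edgeR at a coefficient of variation below that of these data, so the power here is not known from it. Pairs of samples of 1 group differed by a chi-square of 16.4 to 95.2 per degree of freedom, so none was counted as a duplicate. Gene positions are from GENCODE on GRCh37.

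The member genes and the other lists were chosen with earlier results of these data known. Per-sample values are given for 1 or more members per role chosen by name, for the 4 lowest and 4 highest members by log2 fold change of all clones, and for members called. GINS2, MCM6, CHAF1B, EXO1 and CDKN1A with CDKN2A were added after their values had been seen. Of the other lists, genes called or the lowest and highest are named.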

Additional observations from a re-analysis of the deposited data

Results flagged for a closer look

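In the group of 5 DIP2C+/- clones, 26 values (22 replication genes, DIP2C and the means of 3 lists) were screened for a sample far from the others by Dixon's ratio of the gap to the range, and 2 were flagged, both with H9-A4 as the highest library. About 1 group in 20 is flagged by chance. The ratio was 0.819 for CDC45, which measured 69.2 CPM in H9-A4 and 46 to 49.5 CPM in the other 4 DIP2C+/- clones. It was 0.758 for EXO1, at 92 CPM in H9-A4 and 61.3 to 67.6 CPM in the other 4. Both H9-A4 values are close to or above the parental ones, which were 63.4 and 54 CPM for CDC45 and 92.6 and 89.3 CPM for EXO1. Groups of 2 samples could not be screened.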

How the results depend on the processing

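No paired analysis was possible because only the parental samples carry a replicate number and the clones carry names. The count of replication genes called in all clones against parental was 0 to 4 when each sample was left out, with 4 only without H9-A4, and 0 under every other alternative. In DIP2C+/- against parental it was 0 to 3 and again above 0 only without H9-A4. In DIP2C-/- against parental it was 6 when only the compared groups were fitted, a fit of 4 samples that calls 1807 genes. The median log2 fold change of the 39 genes stayed below 0 in every comparison with parental, at -0.2 to -0.1 in all clones, -0.22 to -0.18 in DIP2C-/- and -0.18 to -0.08 in DIP2C+/- clones when samples were left out. With scaling by library size only, the mean of the 39 genes was -0.21 in G1-A5 and -0.31 in A6-C9, where the median of all genes shifted to -0.10 and -0.08, CDC6 turned to -0.02, and 0 genes were below both parental samples in all 7 clones. That number was 1 to 14 with each sample left out (3 and 4 without a parental sample, 14 without H9-A4), and 0 to 4 were above.

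With 1 sample left out, the log2 fold change of all clones ran from -0.26 to 0.03 for PCNA, -0.14 to 0.09 for E2F1, -0.17 to 0.06 for FEN1, -0.04 to 0.06 for CDC6, -0.07 to 0.22 for RRM2, -0.07 to 0.2 for CCNE1 and -0.08 to 0.36 for CCNE2, changing sign for these 7 genes, none of which was called. The sign turned without a parental sample, and also without E3 for E2F1 (0.07) and without A9-A12 for CDC6 (-0.02).

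For the other lists, leaving out samples gave 0 to 11 G2/M genes lower in all clones (0 without any 1 sample other than C10 and H9-A4), 0 to 3 in DIP2C-/- and 0 to 10 in DIP2C+/- clones. It gave 0 to 2 other replication genes lower and 0 to 1 higher in each comparison with parental, and 0 to 6, 0 to 5 and 0 to 5 G1/S regulators lower and 0 to 3 higher. DESeq2 called 4, 2 and 3 G2/M genes lower in all, DIP2C-/- and DIP2C+/- clones, 3, 4 and 1 G1/S regulators lower, 1 higher in all and in DIP2C+/- clones, 2 other replication genes lower in DIP2C-/- and 1 higher in all and in DIP2C+/- clones. Of all genes it called 1.96%, 1.91% and 1.24% in all, DIP2C-/- and DIP2C+/- clones. Fitted alone, DIP2C-/- against parental called 7 G2/M genes, 10 G1/S regulators and 5 other replication genes lower and 3 and 1 of the last 2 lists higher. That fit called 12.6% of all genes. G2/M genes lower in all clones were 0 with no filter on low counts and with values divided by the step, and in DIP2C+/- clones 1 with library size only and 1 with at least 10 counts in every sample. The cause was not tested. Over all genes, the call counts of all clones ran from 11 to 147 lower under other settings and from 1 to 688 lower with samples left out.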

Other observations

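Among genes with a start within 1 Mb of the lowest members, ORC6 has 10 neighbours that were tested, whose median log2 difference was -0.49 in F6-A7, -0.27 in A6-C9, -0.17 in E3, -0.13 in A9-A12 and -0.10 in C10, where ORC6 was at -1.29, -1.29, -1.09, -0.57 and -1.02. In G1-A5 and H9-A4 the neighbours were at -0.08 and 0.14 and ORC6 at 0.18 and 0.06. The 50 neighbours of BRCA1 had medians of -0.18 to 0.19 over the clones, and those of BRCA1's 4 low libraries were -0.18, -0.05, 0.03 and 0.16. The 7 neighbours of GINS1 were at -0.04 to 0.25 and the 16 of ORC1 at -0.26 to 0.00.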
